A study of Mus musculus with 2 samples.

Results

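Integrins, glypicans, syndecans and lecticans are the receptors and matrix molecules through which cells hold on to, and read, the matrix around them. The RNA level of 44 such genes was described in the midbrain of mouse embryos of the B6NCrl strain at 10.5 days. The genes were taken by name, not by their values: 17 integrin alpha subunits, 8 integrin beta subunits, 6 glypicans, 4 syndecans, 4 lecticans, the tenascins Tnc and Tnr, and Reln, Dag1 and Ptprz1. All 44 were found among the 43346 Ensembl gene rows of the tables. RNA was measured in 2 libraries of 1 group, with no treatment and no comparison group. The assay is labelled total RNA sequencing, but how the RNA was captured is taken as unknown. Replicate 1 was made from a pool of 69 embryos and replicate 2 from a pool of 51 embryos, with both sexes mixed in each pool and 10 ng of RNA of over 200 nt taken as input. The labels call the libraries biological replicates and give both pools the same donor identifier, so the spread between them is that of 2 pools and not of single embryos.

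Integrins are pairs of an alpha and a beta subunit that span the membrane and bind laminin, fibronectin, collagen or receptors on other cells. Glypicans, held by a lipid anchor, and syndecans, which cross the membrane, carry heparan sulfate chains that bind growth factors such as FGFs, Wnts and hedgehog proteins. Lecticans are large secreted chondroitin sulfate proteoglycans that join hyaluronan to tenascins. In the neural tube, the dividing neuroepithelium rests with its end feet on a basement membrane rich in laminin, and beta1 integrins and dystroglycan are known to attach those feet.

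The libraries summed to 47128426 and 52189568 expected counts, the deposited estimate of reads per gene. Levels are in TPM, a unit that corrects a count for transcript length and for library size, and a gene was called detected at 1 TPM or more in both. Values are given as replicate 1 and then replicate 2, or as mean ± SD of the 2 libraries (n = 2). Otx2, a homeobox gene required for the midbrain, stood at 138 and 123 TPM and Hoxb1, a gene of the hindbrain, at 0.10 and 0.12 TPM. All 8 neuroepithelial markers and all 8 neuronal markers were detected, and so were all 8 endothelial, all 8 erythroid and all 8 macrophage markers, so the libraries hold RNA of several cell types. In such bulk samples, fewer cells of a type and less RNA per cell cannot be told apart.

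Of the 44 genes, 30 were detected (68.2%), beside 12477 of 21474 protein-coding genes (58.1%). The median of the 44 was 4.16 TPM and that of all protein-coding genes 3.73 TPM. Among detected genes the medians were 21.04 and 20.69 TPM. The set was therefore spread over the whole range of expression, with 5 genes at 50 TPM or more, 18 at 10 TPM or more, 12 others detected below that, and 14 not detected. One of the 14, Itgb2, reached 1 TPM in replicate 2 alone. In the order of levels, 21 of the 29 neighbouring pairs of detected genes overlapped between libraries, so most single steps in that order were within the spread. The 8 steps that did not overlap were those below Gpc3, Sdc1, Gpc2, Sdc2, Itga5, Itga4, Itga2b and Itga11.

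**Figure D1:**
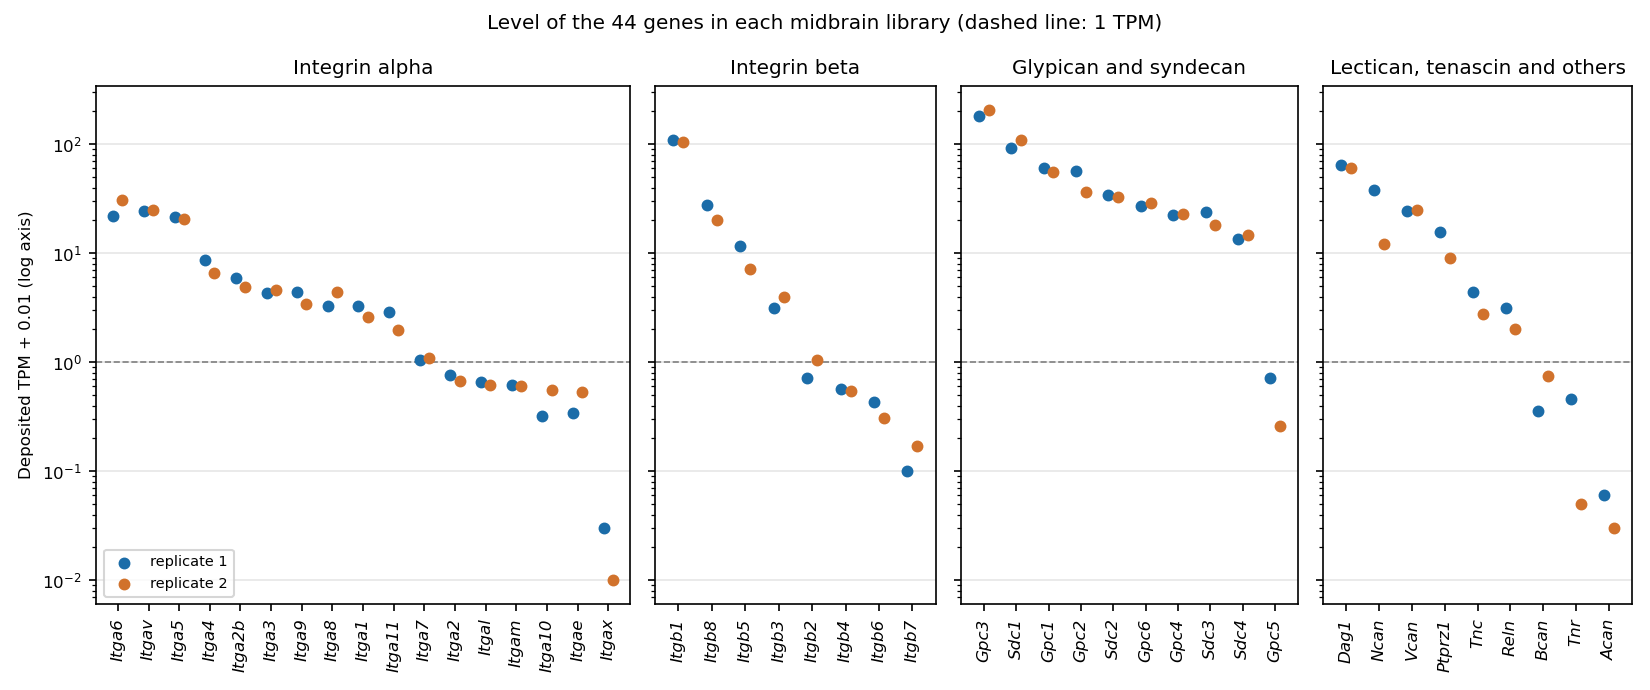
Deposited TPM of the 44 genes on a log axis, with 0.01 added so that a value of 0 can be drawn. Each gene has 1 point per library, and genes are ordered by mean within 4 families. Gpc3, Itgb1 and Sdc1 stand highest, and 14 genes have at least 1 library under the dashed line at 1 TPM.

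Among the beta subunits, which decide much of what an integrin can pair with, Itgb1 was far above the rest. Itgb1 is the partner of most alpha subunits, and it stood at 108.9 and 104.6 TPM from 11853 and 13042 counts. The libraries differed by less than their 95% counting interval, with a ratio of 0.98 of replicate 1 over replicate 2 (0.959 to 1.008). Itgb1 (ENSMUSG00000025809; chromosome 8, 128685654 to 128733200, GRCm38) made up 71.2% and 75.9% of all beta subunit TPM. Itgb8, which pairs with alpha v and activates latent TGF-beta at radial glial end feet and blood vessels, followed at 27.5 and 20.1 TPM. Itgb5, another partner of alpha v, was at 11.7 and 7.18 TPM. Itgb3, which pairs with alpha v and with the platelet subunit alpha IIb, was at 3.13 and 3.97 TPM. The order Itgb1, Itgb8, Itgb5, Itgb3 held in both libraries with no overlap of neighbours. The other 4 beta subunits were not detected. Itgb2, the beta subunit of leukocytes, was at 0.71 and 1.04 TPM, and Itgb4, the laminin receptor subunit of hemidesmosomes, at 0.56 and 0.53 TPM. Itgb6, an epithelial partner of alpha v, was at 0.42 and 0.30 TPM, and Itgb7, a lymphocyte subunit, at 0.09 and 0.16 TPM from 7 and 14 counts.

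Of the 17 alpha subunits, 11 were detected. Itga6, Itgav and Itga5 made up 65.0% and 70.1% of all alpha TPM. Itga6, a laminin receptor subunit, was at 21.9 and 30.7 TPM, higher in replicate 2. Itgav, the alpha v subunit that binds the RGD sequence in vitronectin and other ligands, was at 24.3 and 24.8 TPM. Itga5, the fibronectin receptor subunit, was at 21.4 and 20.6 TPM. Itga5 was the lowest of the 3 in both libraries, while Itgav led in replicate 1 and Itga6 in replicate 2.

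Of the other laminin-binding subunits, Itga3 was at 4.30 and 4.56 TPM and Itga7, best known from muscle, at 1.04 and 1.08 TPM. Of the RGD-binding subunits, Itga8, which binds nephronectin, was at 3.27 and 4.43 TPM. Itga4, which with beta1 binds fibronectin and VCAM1, was at 8.65 and 6.61 TPM, and Itga9, a receptor for tenascin and other ligands, at 4.39 and 3.38 TPM. The laminin receptor subunits Itga6 and Itga3 were thus somewhat higher in replicate 2, and Itga4 and Itga9 in replicate 1. The collagen-binding subunits were low: Itga1 was at 3.30 and 2.59 TPM and Itga11, a fibroblast receptor, at 2.89 and 1.96 TPM. Itga2 (0.76 and 0.66 TPM) and Itga10 (0.31 and 0.55 TPM) were not detected. Head mesenchyme and neural crest markers, which include the collagen genes Col1a1 and Col1a2, were detected for 7 of 8 and summed to 810.7 and 566.2 TPM, with 5 of the 8 higher in replicate 1. The collagen genes made up most of that sum, while the regulators Prrx1 (12.49 and 13.99 TPM), Twist1 (6.45 and 7.24 TPM) and Sox10 (0.46 and 2.15 TPM, 4.93-fold) were higher in replicate 2. Their part in the levels of Itga1 and Itga11, both also higher in replicate 1, was not tested.

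None of the 4 leukocyte subunits was detected. Itgal was at 0.65 and 0.61 TPM, Itgam at 0.61 and 0.60 TPM and Itgae at 0.33 and 0.52 TPM. Itgax, known from dendritic cells, had 2 counts in one library and none in the other, and such an empty count still permits 0.0226 TPM there. Macrophage and microglia markers summed to 87.5 and 58.5 TPM in the same libraries, with C1qb at 27.4 and 17.5 TPM and Csf1r at 8.61 and 5.75 TPM. Ptprc, the lowest of the 8, was at 1.12 and 1.29 TPM and was the only one higher in replicate 2. Itga2b, the platelet subunit alpha IIb, was detected at 5.86 and 4.92 TPM from 367 and 408 counts. Of 8 megakaryocyte and platelet markers 4 were detected, summing with the rest to 73.0 and 57.3 TPM. Pf4 alone stood at 56.4 and 42.2 TPM, while Selp was at 0.04 and 0.07 TPM. The part of blood cells in the level of Itga2b was not tested.

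In each library, the alpha subunits that can pair with beta1 (Itga1 to Itga11 and Itgav) were set against Itgb1. Their TPM summed to 96.5 and 101.8, or 0.886 and 0.973 of the Itgb1 level. Some of these alpha subunits, Itgav and Itga4 among them, also pair with other beta subunits, so the ratio is not a count of receptors. It also moved with the transcripts counted. When only transcripts with at least 80% of the gene's longest coding sequence were summed, an alternative chosen after the data were seen, the ratio was 0.580 and 0.602.

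The alpha subunits differed in how much of their level came from such transcripts. Of Itgav's TPM, 60.0% and 58.7% was assigned to Itgav-205, a transcript of 463 nt with 3 exons, from only 156 and 178 of the gene's 1740 and 1850 counts. The long coding transcripts Itgav-201 and Itgav-202 together stood at 7.51 and 6.72 TPM. For Itga6, 41.8% and 34.0% was assigned to Itga6-203, annotated as noncoding with 3 exons, and the 2 full coding transcripts summed to 10.7 and 14.5 TPM. Itga5 has 1 annotated transcript. Counted by near-full-length transcripts, Itga5 was therefore the highest alpha subunit in both libraries at 21.4 and 20.6 TPM, above Itga6 and Itgav. Itga4 kept 54.7% and 55.5% of its TPM in its full coding transcript Itga4-201, and Itga2b 52.9% and 65.7%. Itgb1 kept 99.3% and 99.7%.

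Itga6 has a pair of coding transcripts whose cytoplasmic tails differ, and they changed order between the libraries. Itga6-201 has 1073 codons, the form known as alpha 6A, and Itga6-202 has 1091 codons, the form known as alpha 6B. Itga6-201 stood at 6.72 and 6.01 TPM from 831 and 851 counts, and Itga6-202 at 3.98 and 8.47 TPM from 473 and 1154 counts. Itga6-201 was thus the higher in replicate 1 and Itga6-202 in replicate 2, so these data give no fixed order of the tails. The bases that set them apart are an exon of 130 nt that Itga6-201 has and Itga6-202 lacks, with 105 coding bases. The related gene Itga3 has such an exon in Itga3-201, with 108 coding bases, and Itga3-201 held 76.5% and 94.1% of Itga3 TPM. The other tail form, Itga3-203, was at 0.36 TPM in replicate 1 and listed at 0 in replicate 2. The coding parts of both exons are shown because they are what separates the tail forms, from GENCODE M21 on GRCm38, 5′ to 3′ on the gene's strand. Capitals mark the 12 bases that the 2 exons share at the same place, from base 4 on. They lie at the start of the tail, where alpha subunits are known to be most alike.
Itga6-201 (chr2:71853534-71853638, plus strand): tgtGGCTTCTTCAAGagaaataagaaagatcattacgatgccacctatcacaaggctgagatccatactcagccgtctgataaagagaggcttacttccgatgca
Itga3-201 (chr11:95046483-95046590, minus strand): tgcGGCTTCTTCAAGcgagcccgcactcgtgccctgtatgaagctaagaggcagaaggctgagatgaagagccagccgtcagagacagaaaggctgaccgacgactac

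Glypicans were the most abundant family of the set. They summed to 347.7 and 351.6 TPM, against 165.4 and 174.5 TPM for the syndecans, or 2.10 and 2.02 times as much. With near-full-length transcripts alone the ratio was 1.89 and 1.86. Gpc3, which is known to limit growth by binding hedgehog and Wnt proteins, was the highest of all 44 genes at 180.1 and 207.9 TPM, above 96.1% of protein-coding genes by its mean. Gpc3 (ENSMUSG00000055653; chromosome X, 52272426 to 52613950) alone made up 51.8% and 59.1% of glypican TPM. Gpc1, which is known to act on FGF signalling in the embryonic brain, was at 60.4 and 55.7 TPM. Gpc2, a glypican of newborn neurons and their axons, was at 57.0 and 36.1 TPM, higher in replicate 1. Gpc6 was at 27.2 and 28.6 TPM and Gpc4, a regulator of Wnt signalling, at 22.3 and 23.0 TPM. Gpc3 and Gpc1 kept their place in both libraries, and Gpc6 and Gpc4 did not overlap.

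Gpc5 was the exception in its family, at 0.70 and 0.25 TPM from 40 and 23 counts. It lies on chromosome 14 at 115092215 to 116525179, next to Gpc6 at 116925315 to 117976544, with 400 kb between the genes. The other neighbouring pair of glypicans, Gpc4 (chromosome X, 52053021 to 52165252) and Gpc3, lies 107 kb apart, and both were detected. Neighbours on the chromosome thus stood at unlike levels in both pairs, with Gpc6 above Gpc5 and Gpc3 above Gpc4 in each library. Gpc6 divided its TPM between transcripts: Gpc6-202 held 36.9% and 30.04%, Gpc6-201 34.5% and 33.8%, and a retained-intron transcript, Gpc6-203, 26.7% and 26.0%. The leading transcript of Gpc6 differed between the libraries. Of Gpc2, 22% and 23.2% was assigned to the retained-intron transcript Gpc2-207.

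All 4 syndecans were detected. Sdc1 (ENSMUSG00000020592; chromosome 12, 8771323 to 8793715), best known from epithelia and plasma cells and also expressed by neural progenitors, was at 93.2 and 108.9 TPM. It made up 56.4% and 62.4% of syndecan TPM. Sdc2, a syndecan of mesenchyme and of dendritic spines, was at 34.4 and 32.6 TPM and changed little between libraries. Sdc3, known from neurons and their axons, was at 24.1 and 18.1 TPM, and Sdc4, a partner of integrins in focal adhesions, at 13.6 and 14.8 TPM. The order Sdc1, Sdc2, Sdc3, Sdc4 was the same in both libraries, with no overlap between neighbours.

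The lecticans fell into 2 detected and 2 undetected genes. Vcan, versican, the lectican of embryonic tissue, was at 24.6 and 25.1 TPM from 5127 and 5794 counts and hardly differed between the libraries. Ncan, neurocan, a lectican of the nervous system made by young neurons, was at 37.8 and 12.2 TPM from 7865 and 2913 counts. Replicate 1 was thus far above replicate 2 for Ncan. Ncan exceeded Vcan by 1.53 times in replicate 1 and reached 0.488 of it in replicate 2, so the leading lectican differed between the libraries, and Vcan made up 39.2% and 65.9% of lectican TPM. Bcan, brevican, a lectican of later glia, was at 0.35 and 0.74 TPM, and Acan, aggrecan, the lectican of cartilage and of perineuronal nets, at 0.05 and 0.02 TPM from 10 and 5 counts. Markers of oligodendrocytes and astrocytes were detected for 4 of 8. Pdgfra, also a mesenchymal gene, was at 15.2 and 11.7 TPM, Mbp at 12.1 and 10.4 TPM and Olig2 at 6.51 and 6.74 TPM, while Gfap was at 0.04 and 0.07 TPM.

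Versican is made in several lengths by skipping either or both of the large exons that carry the chondroitin sulfate chains. Vcan-203, with both exons and known as V0, held 42.1% and 39.2% of Vcan TPM. Vcan-201, which lacks both and is known as V3, held 31.6% and 35.96%. Vcan-206, known as V1, held 10.9% and 13.5% and lacks only the exon of 2880 bases. The other large exon, of 5217 bases, is absent from Vcan-201 as well. The order of the 3 forms by TPM was the same in both libraries. By counts they ranked differently, with 3751 and 4070 for V0, 646 and 935 for V1 and 507 and 673 for V3, because TPM divides by length. V0 contains nearly the whole of the shorter forms, so the split among them rests on few reads.

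Tnc, tenascin C, a matrix glycoprotein of radial glia and of migrating crest cells, was at 4.38 and 2.75 TPM. Tnr, tenascin R, a partner of lecticans in the later brain, was at 0.45 and 0.04 TPM. Its counts were 17 and 7, so the gap in TPM is wider than that in reads. The effective length assigned to Tnr was 1284 nt in replicate 1 and 4698 nt in replicate 2, since different transcripts were taken as its source. Tnc divided its TPM among forms with different numbers of fibronectin-type repeats. Tnc-204 held 62.8% and 41.2%, Tnc-203 34.4% and 38.3%, and Tnc-201, with the same coding length of 6057 bases as Tnc-204, 1.62% and 20.5%. Tnc-203 has a coding exon of 273 bases that Tnc-204 lacks. It is shown as the stretch that separates the 2 leading forms, in lower case throughout.
Tnc-203 exon (chr4:63984460-63984732, minus strand, GRCm38): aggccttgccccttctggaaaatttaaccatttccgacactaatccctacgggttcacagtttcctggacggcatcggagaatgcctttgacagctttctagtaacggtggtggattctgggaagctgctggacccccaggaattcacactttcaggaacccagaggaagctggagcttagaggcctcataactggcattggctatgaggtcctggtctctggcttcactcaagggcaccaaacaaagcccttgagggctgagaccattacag

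Dag1, dystroglycan, the laminin receptor that links the basement membrane to the cytoskeleton, was the fourth highest gene at 65.0 and 60.3 TPM. Its 4 near-full-length transcripts held 95.9% and 94.6% of its TPM, and the 3 leading ones have the same coding length of 2679 bases. Ptprz1, a receptor phosphatase of radial glia whose extracellular part is a chondroitin sulfate proteoglycan, was at 15.7 and 9.02 TPM. Reln, reelin, a secreted glycoprotein that guides neuronal positioning, was at 3.16 and 2.02 TPM. Only 32.8% and 34.7% of Reln TPM was in near-full-length transcripts, and the short noncoding Reln-205 held 31.7% and 40.0%.

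**Figure D2:**
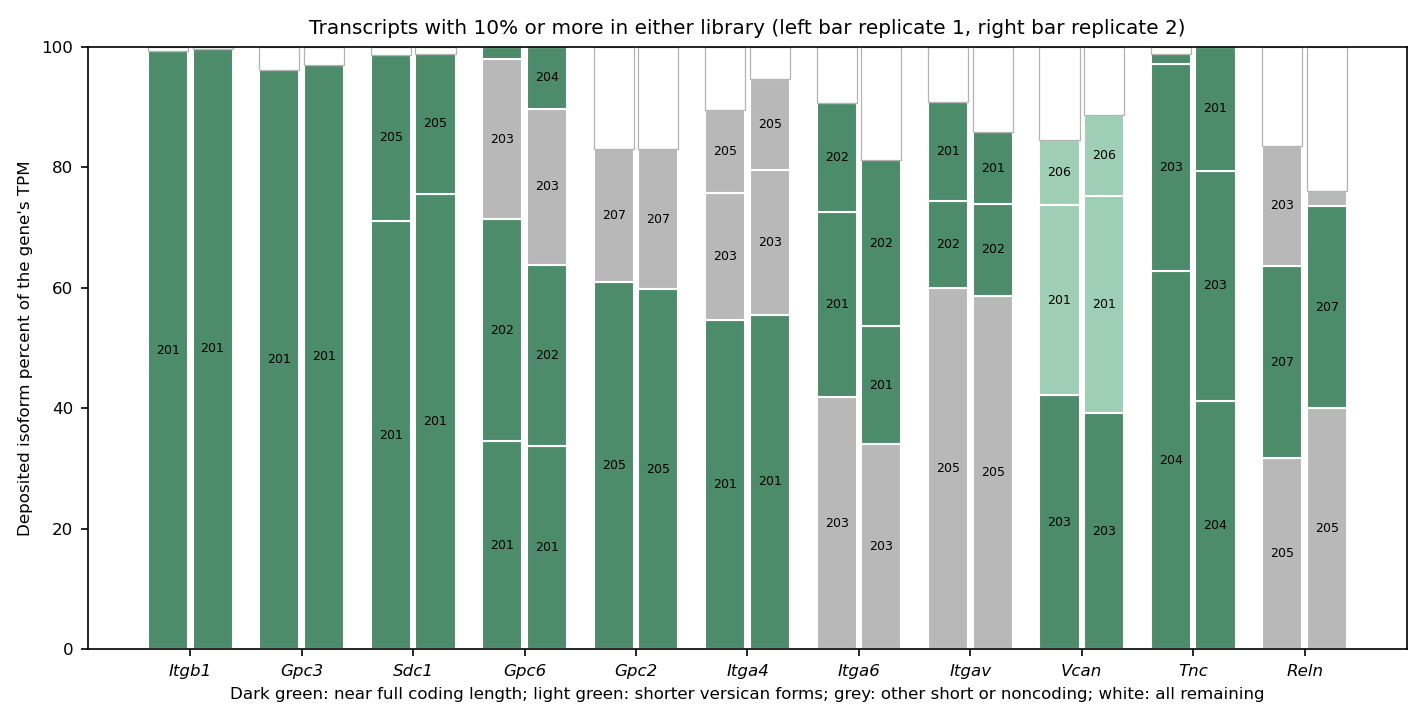
Share of each gene's TPM assigned to its transcripts, in percent, for 11 of the genes, with replicate 1 on the left and replicate 2 on the right of each pair of bars. Numbers in the bars are the transcript suffixes of GENCODE M21. Itgb1 and Gpc3 are nearly all 1 coding transcript, while Itgav-205 takes 60.0% and 58.7% of Itgav and Vcan is divided among 3 coding forms.

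Of the 20 genes with a mean of 1 TPM or more and at least 2 transcripts above 0, 18 had the same leading transcript in both libraries. The exceptions were Gpc6 and Reln. In 19 of the 30 genes at a mean of 1 TPM or more, near-full-length transcripts held 90% or more of the TPM in each library. In 4, they held under 50% in each: Itga6, Itgav, Reln and Vcan, where for Vcan the rest includes the coding forms above.

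The difference between the 2 libraries was measured as a ratio of counts scaled by TMM factors, which correct for composition. With 1 library on each side there is no test of it, and intervals cover counting error only. Of 14768 genes with a mean of 1 TPM or more, 3.22% differed 2-fold or more, 2.04% being higher in replicate 1 and 1.18% higher in replicate 2. Of the 30 tested genes of the set, 1 did, a share (3.33%) near that of all genes. That gene was Ncan, at 2.92-fold higher in replicate 1 (2.80 to 3.05), a larger ratio than that of 99.4% of all genes tested. None of the 30 was 2-fold or more higher in replicate 2. The median log2 ratio of the 30 was 0.01, and 15 genes lay on either side of 0, beside a median of -0.01 over all genes.

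Smaller differences were common and went both ways. The median size of the log2 ratio, without sign, was 0.28 for the 30 genes and 0.16 for all genes tested. The interval left out a ratio of 1 for 22 of the 30. The same share over all genes tested was not computed, and the interval narrows as counts rise. The count is therefore not read as a trait of the set. Past 1.5-fold were 4 of the 30 genes, all higher in replicate 1. Over all genes tested, 6.54% were past it and higher in replicate 1, and 3.09% were past it and higher in replicate 2. The 4 were Ncan, Ptprz1 at 1.64-fold (1.56 to 1.73), Gpc2 at 1.51-fold (1.45 to 1.58) and Tnc at 1.51-fold (1.36 to 1.67). Reln followed at 1.46-fold (1.27 to 1.69) and Itgb5 at 1.46-fold (1.32 to 1.61). In the other direction Itga6 was 1.39-fold higher in replicate 2 (1.31 to 1.46), Itgb3 1.34-fold (1.20 to 1.51), Itga8 1.28-fold (1.14 to 1.44), Sdc1 1.25-fold (1.22 to 1.29) and Gpc3 1.22-fold (1.19 to 1.25). Down to the same size, 1.22-fold, other genes were higher in replicate 1. They were Itga11 at 1.39-fold (1.20 to 1.62), Itgb8 at 1.29-fold (1.24 to 1.34), Sdc3 at 1.26-fold (1.20 to 1.32) and Itga4 at 1.23-fold (1.15 to 1.33).

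Neuronal markers moved the same way as Ncan. All 8 were higher in replicate 1, with a sum of 1262 TPM in replicate 1 and 789.7 TPM in replicate 2, or 1.6 times as much, and a median log2 ratio of 0.61. Dcx, a microtubule protein of young neurons, was at 44.5 and 19.6 TPM. The neuroepithelial markers summed to 2778 and 2282 TPM (median log2 ratio 0.17) and the macrophage markers had a median log2 ratio of 0.53. Erythroid markers, all 8 higher in replicate 2, had a median of -0.28 and surface ectoderm markers one of -0.44 over 5 genes. Among the 8 neuronal markers the highest ratio was 2.12-fold, that of Dcx, below the ratio of Ncan. The part of neuronal content in the difference of Ncan was not tested.

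**Figure D3:**
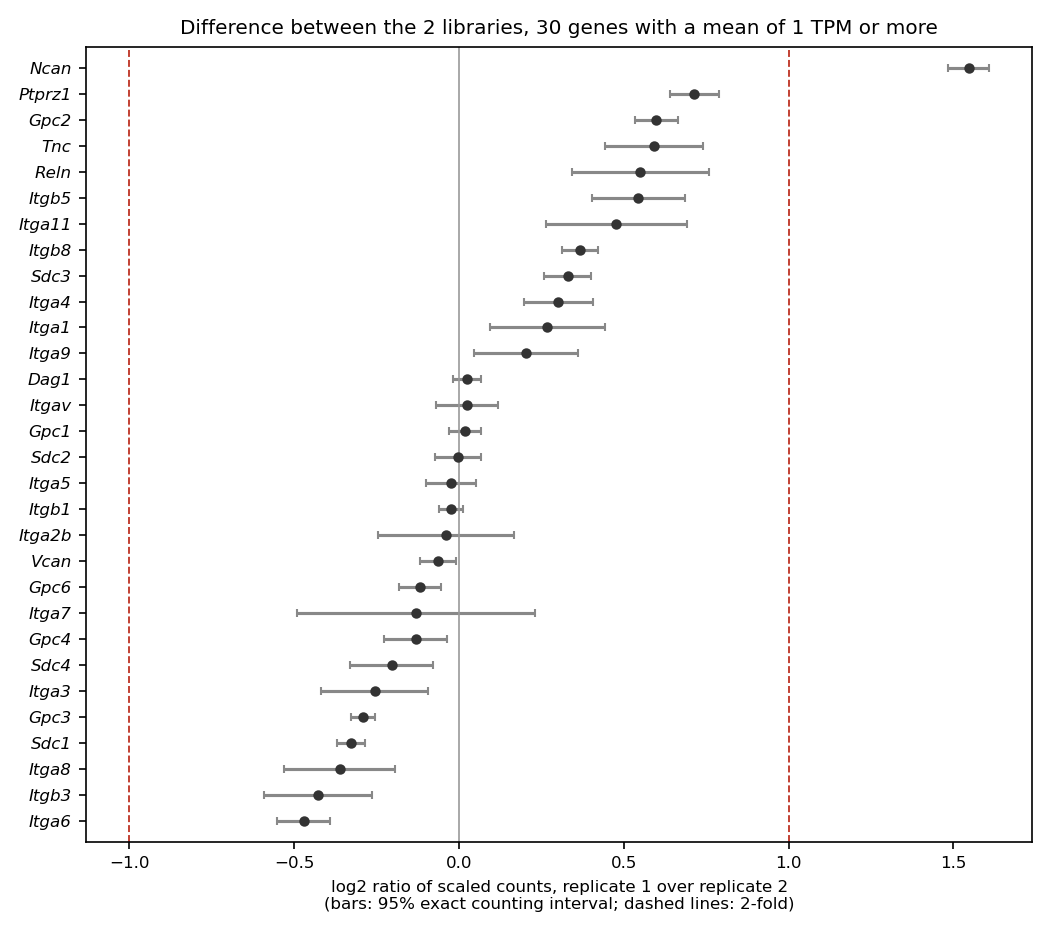
Log2 ratio of scaled counts, replicate 1 over replicate 2, for the 30 genes with a mean of 1 TPM or more, with 95% exact counting intervals as bars and dashed lines at 2-fold. Ncan alone lies beyond a dashed line, at 1.55, and the rest run from -0.47 (Itga6) to 0.71 (Ptprz1).

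Of 21 genes for integrin activators and adhesion adaptors, most of which work inside the cell, 19 were detected. The median of all 21, detected or not, was 24.3 TPM, beside 3.73 TPM over all protein-coding genes. Ilk, the integrin-linked pseudokinase, was at 228.8 and 222.4 TPM, its partner Lims1 at 91.1 and 93.7 TPM and the adhesion protein Zyx at 74.4 and 72.6 TPM. The lowest was Ptk2b at 0.43 and 0.63 TPM. None of the 19 differed 2-fold between the libraries. Among integrin ligands 18 of 20 were detected. Col3a1 was at 416.4 and 316.7 TPM, Col1a1 at 149.3 and 72.6 TPM and vitronectin, Vtn, a ligand of alpha v integrins, at 98.4 and 101.5 TPM. None passed 2-fold by scaled counts, where Col1a1 came to 1.95-fold higher in replicate 1. Madcam1, a ligand of Itgb7 integrins, was at 0.83 and 0.77 TPM.

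Enzymes that build and edit the sugar chains of these proteoglycans were mostly detected. For heparan sulfate, 22 of 27 passed the detection level, and the list had a median of 11.97 TPM. Of the extracellular sulfatases, Sulf1 stood at 74.8 and 73.7 TPM and Sulf2 at 70.4 and 58.1 TPM. The chain polymerase subunit Ext2 stood at 66.03 and 61.44 TPM. Of the 22, 2 were past 2-fold, both higher in replicate 1: the sulfotransferases Ndst3 (7.70 and 2.90 TPM, 3.03-fold, 2.72 to 3.40) and Hs3st1 (5.72 and 2.84 TPM, 2.01-fold, 1.64 to 2.48). Over all genes tested, 2.04% were 2-fold or more higher in replicate 1. With only 22 genes, the count of 2 is not read as a trait of the list. Hs6st3 was the lowest at 0.03 and 0.05 TPM. For chondroitin sulfate, 11 of 15 passed it, the median was 5.42 TPM and none was past 2-fold, led by Chpf at 21.3 and 20.7 TPM, Dse at 19.2 and 19.6 TPM and Chpf2 at 15.5 and 11.5 TPM. Chst13 was listed at 0 and 0.10 TPM. The Ncan difference thus had no counterpart past 2-fold among the enzymes of its sugar chain.

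Genes for the partners of the lecticans in the matrix, and for the proteases that cleave lecticans, form 2 further lists. Of 11 genes of hyaluronan and its link proteins 6 were detected, beside 58.1% of all protein-coding genes. The hyaluronidase gene Hyal2 was at 126.5 and 121.3 TPM, the hyaluronan-binding protein gene Hmmr, which is also a spindle protein, at 49.5 and 53.4 TPM, and the link protein gene Hapln1 at 16.6 and 21.1 TPM. Hapln2 was at 0.08 and 0 TPM. All 3 hyaluronan synthase genes were under 1 TPM, the highest being Has2 at 0.57 and 0.78 TPM. All 8 lectican-cleaving proteases were detected, from Mmp14 at 56.8 and 45.2 TPM, Mmp2 at 34.3 and 32.2 TPM and Adamts1 at 12.9 and 15.1 TPM to Adamts9 at 1.07 and 1.52 TPM. None of the genes in these 2 lists with a mean of 1 TPM or more was past 2-fold.

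The remaining lists hold enzymes, receptors and ligands that work with Dag1, Reln and Ptprz1. Among genes that glycosylate dystroglycan, Pomgnt1 stood at 47.3 and 47.6 TPM, B4gat1 at 37.5 and 37.7 TPM and Pomt1 at 25.5 and 23.2 TPM. Of the reelin receptors, Lrp8 had 12.6 and 8.83 TPM and Vldlr 6.43 and 6.70 TPM, while the adaptor Dab1 had 30.2 and 22.7 TPM, all above Reln itself. Of the ligands of Ptprz1, midkine, Mdk, was at 1090 and 1410 TPM, pleiotrophin, Ptn, at 59.5 and 65.6 TPM and the contactin Cntn1 at 4.40 and 3.43 TPM. None of these genes passed 2-fold.

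**Figure D4:**
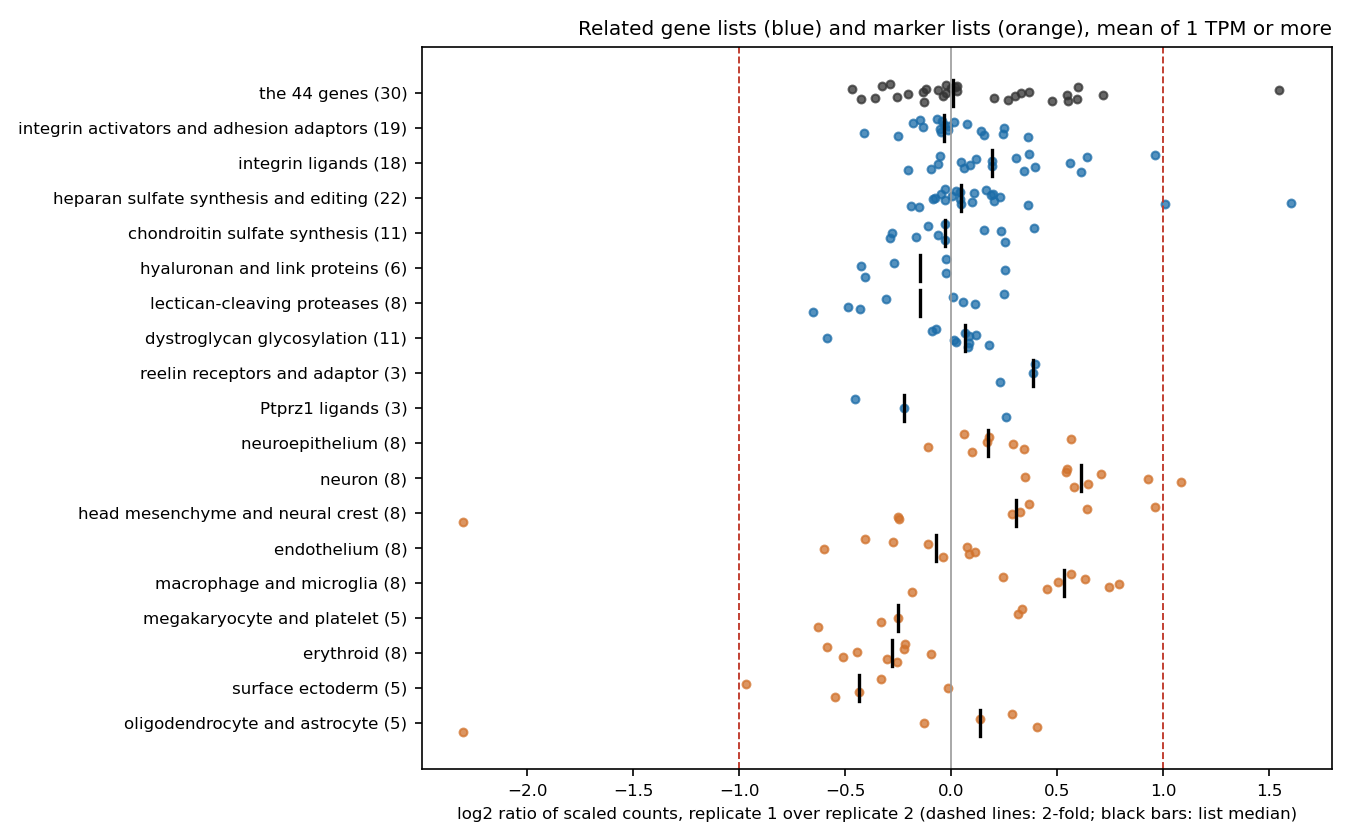
Log2 ratio of scaled counts, replicate 1 over replicate 2, for genes with a mean of 1 TPM or more, 1 point per gene, with list medians as black bars and the number of genes in parentheses. The set (dark points) is centred near 0 with Ncan apart, and the neuronal markers, with a median of 0.61, lie to the right of 0. Sox10, held by 2 marker lists, is the point at the far left.

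The stretches before the start sites were looked at as a property that the choice of genes did not use. RefSeq promoters (GRCm38.p6) of 300 bases, 250 before and 50 after the start, were held for 34 of the 44 genes, and the first listed start was taken. The 24 detected genes had a median of 21 CG dinucleotides, from 6 to 47, and the 10 others a median of 9, from 3 to 31, beside a median of 13 over 17491 protein-coding promoters. At least 10 were found in 22 of the 24 and in 5 of the 10, beside 57.2% of all. Itga9, with 10 CG, is among the 22, and its first listed start lies well inside the gene. The GC box letters GGGCGG, which hold a CG themselves, were found on either strand in 18 of the 24 and in 5 of the 10, beside 46.3% of all. These reference values cover all protein-coding promoters, whether the gene was detected or not. Values over detected genes alone were not computed, so the split by detection has no like reference. Acan, at 0.05 and 0.02 TPM, had 31 CG, so a promoter rich in CG was also found in a gene that was not detected. The 100 bases just before the start are shown for the genes with the highest level (Gpc3), the highest integrin (Itgb1), the largest difference between libraries (Ncan) and the lowest level (Itgax), with each CG in capitals.
Gpc3 (chrX:52613975-52614074, minus strand): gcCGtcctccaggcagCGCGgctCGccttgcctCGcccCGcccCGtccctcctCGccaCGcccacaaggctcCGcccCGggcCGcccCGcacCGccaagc
Itgb1 (chr8:128685554-128685653, plus strand): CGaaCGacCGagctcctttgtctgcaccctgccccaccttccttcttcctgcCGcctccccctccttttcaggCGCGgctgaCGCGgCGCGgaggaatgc
Ncan (chr8:70120845-70120944, minus strand): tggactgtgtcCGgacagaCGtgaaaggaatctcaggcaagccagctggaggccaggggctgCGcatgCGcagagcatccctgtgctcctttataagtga
Itgax (chr7:128129450-128129549, plus strand): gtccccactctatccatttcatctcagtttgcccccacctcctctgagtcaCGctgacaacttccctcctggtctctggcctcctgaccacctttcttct
These stretches held 14, 10, 4 and 1 CG.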

How the data were processed

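RNA was profiled in 2 libraries of 1 group, and the gene and transcript tables, on mm10 with GENCODE M4 per the file headers and the notes deposited with them, were used. Aligner, quantifier and strand setting: not given in the sources used here. By its label this is a total RNA assay, yet the protocols also link the manual of a poly(A)-primed kit, so capture is taken as unknown. The deposited expected counts are estimates shared among transcripts and genes. The deposited TPM values correct those counts for effective length and for the size of the library. The deposited FPKM values served in the alternatives. Credible bounds of TPM, a deposited signal, were read but are not printed. The deposited isoform percent is a transcript's share of its gene.

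Symbols, transcripts and positions come from GENCODE M21 on GRCm38 by Ensembl identifier (42462 of 43346 genes, 200 of 201 transcripts of the 44 genes, 188 of equal length). Spike-in and tRNA rows, with 3.39% and 3.28% of the counts, were left out of library sizes. Exons of 15 of the genes overlap another gene, in 11 on the opposite strand, and their reads may be shared.

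After rounding, expected counts were scaled by TMM (edgeR 4.0.16; factors 1.01 and 0.988), with 0.5 added in ratios. Genes with a mean of 1 TPM or more were compared, and 2-fold or more was called, with no test. Intervals are exact binomial at 95% and cover counting error only, since PCR copies are not independent molecules. A count of 0 was taken to allow 3 counts. On simulated counts for replicate 1 against replicate 2 the calls were checked against known folds. Alternatives used DESeq2 1.42.0 size factors, other minimums, folds and units, and each library alone. All 44 genes are named. Of each related list the 3 highest, the lowest and those past 2-fold are named, except that some items are not reported here, and others singled out were chosen after their values were seen. The genes and lists were chosen with earlier results of these data known. Python 3.11.15, scipy 1.17.1 and R 4.3.3 were used.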

Additional observations from a re-analysis of the deposited data

How the results depend on the processing

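Of 53 alternatives over 10 results, 43 moved a value by less than the spread or a count by at most 1.5 times. For the shares and ratios of TPM, a single library always lies within 1 SD of the mean of 2. Those single-library alternatives could not have counted as moved, and they say nothing on how stable a share is. The number of genes detected, 30, ran from 20 with a minimum of 5 TPM to 35 with one of 0.5 TPM. The median of the 44 genes was 21.04 TPM with a minimum mean of 1 TPM, 2.63 as FPKM and 4.67 by posterior mean TPM, and from 4.38 to 4.50 TPM in a single library. The number past 2-fold and higher in replicate 1 went from 1 to 4 with no minimum and to 4 at 1.5-fold. The number higher in replicate 2 went from 0 to 1 with no minimum, which was Bcan with 23 and 67 counts. Summing near-full-length coding transcripts alone, chosen after the data were seen, gave 0.591 for beta1-partner alpha over Itgb1 (0.929 otherwise) and 1.87 for glypican over syndecan (2.06 otherwise); the cause is the transcripts left out. It was not applied to Vcan, whose shorter transcripts code named forms. Itgb1's share of beta subunits ran from 71.2% to 75.9% and Vcan's share of lecticans from 39.2% to 65.9% over single libraries, and Ncan passed 2-fold under every scaling, minimum and added count tried. With TPM unscaled, the median log2 ratio over all genes was 0.07, beside -0.01 with scaled counts. Genes under about 100 counts, such as Gpc5, Tnr, Acan and Bcan, are limited by depth. No paired analysis was possible because there is 1 group.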
